A study of Homo sapiens with 8 samples.

Results

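The mitochondrial ribosomal protein genes are the genes whose symbol is MRPL or MRPS, a number and at most 1 letter from A to C, which name proteins of the large and the small subunit of the mitochondrial ribosome. The tables listed 78 such genes among 36779, and all 78 reached 1 CPM (counts scaled to library size) in at least 2 libraries, so that all entered the tests of 17877 genes. Of the 78, 49 carry MRPL symbols and 29 carry MRPS symbols. Another 25 symbols that begin in the same way (pseudogenes, antisense genes and other forms) fall outside the rule.

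The 8 libraries were of total RNA from DU145 and PC3, established human prostate cancer cell lines that grow without androgen. Cells of each line were transfected with an expression plasmid for circ0003553, with one for circ0004592, or with a negative control plasmid. The 2 circular RNAs (circRNAs) form separate arms whose titles carry the gene names RCAN3 and STK3, and each arm had a control library of its own in each line. Each line therefore held 2 control libraries, 1 library with circ0003553 and 1 with circ0004592. Transfection times and doses are not given in the labels used here, and nothing says that the control libraries of a line came from separate cultures, so their spread may be technical.

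A mitochondrion has its own ribosome, which translates the handful of messages of the mitochondrial genome. Those messages encode core subunits of the respiratory chain and of ATP synthase, while every protein of the mitochondrial ribosome is encoded in the nucleus, made in the cytosol and imported. Many of these proteins have a bacterial counterpart, others were acquired in the line leading to animals, and loss of several of them causes combined respiratory chain deficiency in humans.

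Total counts lay between 33444940 and 49926342 per library, and the 78 genes together took between 0.381% and 0.415% of them. A member had at least 78 and at most 8769 counts in a library. Gene counts of RCAN3 were 20.9 CPM in the DU145 control and 37.1 CPM with circ0003553, and 33.2 and 44.0 CPM in PC3. For STK3 the DU145 values were 26.1 CPM in the control and 34.1 CPM with circ0004592, against 9.12 and 19.3 CPM in PC3, but gene counts do not separate a circular from a linear RNA. The labels of the lines were checked against a deletion known in PC3: CTNNA1 had 393 to 431 CPM in the DU145 libraries and 3.84 to 4.60 CPM in the PC3 libraries. The keratins KRT8 and KRT18 were present in every library, and the leukocyte marker PTPRC did not exceed 0.0601 CPM. MX1, an interferon-induced GTPase, stood at 23.4 and 23.8 CPM in the PC3 controls and at 2673 and 2549 CPM with the circRNA plasmids, a response that moved with every PC3 comparison given here and whose part in it was not tested.

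The level of the members, as RPKM (counts scaled by exon length and library total, which allows genes of different length to be compared), differed by a factor of 125 between the highest and the lowest mean. MRPS34, a small subunit protein whose loss destabilises that subunit, led with a mean of 145 ± 20.3 RPKM (SD over the 8 libraries) and a range from 116 to 173 RPKM. MRPL24 followed at 67.1 ± 16.6 RPKM, MRPL51 at 66.4 ± 6.59, MRPS18B at 55.4 ± 16.3 and MRPS18A at 55.0 ± 8.78, and these 4 genes overlapped each other across the libraries, so their order is not fixed by these data. At the other end stood MRPL23 at 1.16 ± 0.480 RPKM, MRPL42 at 2.17 ± 0.586, MRPS36 at 2.86 ± 0.638, MRPL22 at 3.41 ± 1.10 and MRPL57 at 4.56 ± 1.51. MRPS36 is now known chiefly as a subunit of the 2-oxoglutarate dehydrogenase complex rather than of the ribosome. MRPL42 was listed with 16393 exon bases, the most of the 78, and RPKM divides by that length. The order depends on the listed lengths of other members too: MRPS5, at 161 to 222 CPM with 6719 exon bases, had rank 19 in mean RPKM.

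**Figure D1:**
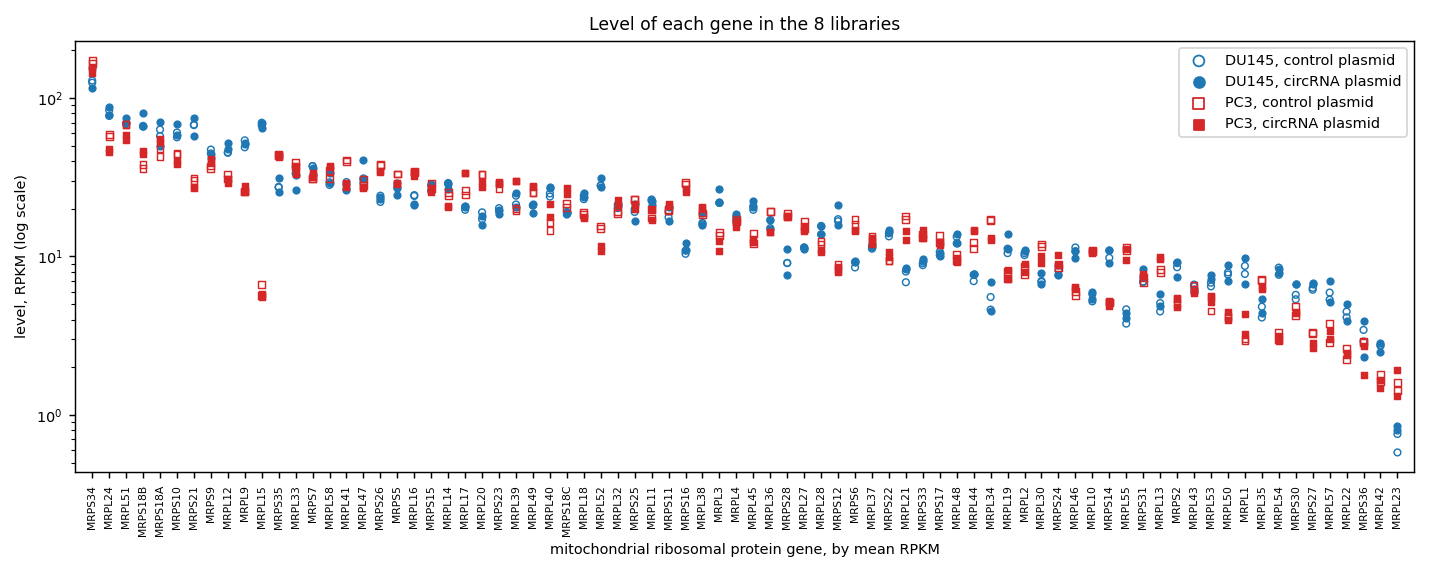
Level of each of the 78 genes in the 8 libraries, in RPKM on a log scale, with the genes in order of their mean; circles are DU145 and squares PC3, open for control and filled for circRNA plasmids. MRPS34 lies highest in every library, and MRPL15 has DU145 values far above those of PC3.

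Subunit proteins did not share a level. The median member had 14.5 to 17.7 RPKM depending on the library, against 81.1 to 108 RPKM for the median of 77 cytosolic ribosomal protein genes and 19.8 to 23.8 RPKM for the median of 75 nuclear genes of respiratory chain subunits. Summed over the 49 MRPL genes, the level was 953 to 989 RPKM in DU145 and 816 to 872 RPKM in PC3. Over the 29 MRPS genes the sum was 761 to 821 RPKM in DU145 and 747 to 774 RPKM in PC3, so only the MRPL sums of the lines did not overlap. Names are no sure guide to the subunit: MRPS30 (5.32 ± 1.01 RPKM) and MRPS18A sit in the large subunit in structures of the human ribosome. MRPL12, the stalk protein that recruits translation factors, stood at 39.3 ± 9.13 RPKM, and MRPL10, the base of that stalk to which several copies of MRPL12 bind, at 8.18 ± 2.78 RPKM.

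PC3 was first set against DU145 on the control plasmid, a comparison that shows how far the cell lines differ before any circRNA is added. The members moved both ways: 31 were called higher in PC3 (39.7%, beside 41.6% of all tested genes) and 37 were called lower (47.4%, beside 41.1%), at an adjusted p under 0.05 in edgeR's quasi-likelihood test. Their median log2 difference was -0.04, beside 0.0014 for all genes. The differences were smaller than those of genes at large, with a median absolute log2 difference of 0.499 against 0.792 and 14.1% of members past a 2-fold difference against 40.6% of all tested genes. Members also had higher levels, with a median of mean RPKM of 16.9 against 3.54 for all tested genes. The sets were not matched for level. In 25 members every PC3 library lay above every DU145 library (32.1%, beside 37% of all genes) and in 33 every PC3 library lay below (42.3%, beside 37%), over the control and circRNA plasmids alike.

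MRPL15, a large subunit protein with a bacterial counterpart, had the largest difference of the 78. The DU145 libraries gave 79.7 and 83.2 CPM with the control plasmid, 80.6 with circ0003553 and 79.7 with circ0004592, and the PC3 libraries gave 6.75 and 7.86 CPM with the control, 7.05 with circ0003553 and 6.67 with circ0004592. The lines were far apart and the plasmids were close together within each. The log2 difference was -3.48 (SE 0.08, adjusted p = 5.94e-22 in edgeR), or 11.1 times less in PC3.

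Next among the lower genes came MRPL1, which in bacteria forms the mobile L1 stalk, at 16.9 and 15.1 CPM in the DU145 controls and 5.85 and 5.63 CPM in the PC3 controls. Its log2 difference was -1.48 (SE 0.11, edgeR adjusted p = 8.31e-12). MRPL54 fell from 8.50 and 7.68 CPM to 3.32 and 2.96 CPM, a log2 difference of -1.37, and MRPS21 from 111 CPM in both DU145 controls to 49.6 and 50.7 CPM, a difference of -1.14. Of the remaining called falls, MRPS14 and MRPL9 stood at -1.01, MRPS12 at -0.98, MRPL46 and MRPS27 at -0.93 and MRPL50 at -0.92. MRPS12 belongs to the decoding centre and MRPS27 is a pentatricopeptide repeat protein of the small subunit. MRPL1, MRPL54, MRPS21 and MRPS12 did not overlap between the lines in any of the 8 libraries.

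Among the genes higher in PC3, MRPL34, a small protein of the large subunit, rose from 9.31 and 7.78 CPM in the DU145 controls to 28.4 and 28.5 CPM in the PC3 controls. Its log2 difference was 1.73 (SE 0.10, edgeR adjusted p = 2.56e-14). MRPS16, a small subunit protein mutated in a fatal infantile deficiency, rose from 30.4 and 29 to 82.0 and 79.3 CPM, a log2 difference of 1.44. MRPL55 rose from 8.72 and 7.10 to 21.4 and 20.4 CPM, a difference of 1.40, and MRPL21 from 22.6 and 19.4 to 48.4 and 50.3 CPM, a difference of 1.23. Smaller called rises were those of MRPL23 (1.19, SE 0.20), MRPS28 (1.0), MRPL10 (0.97), MRPS6 (0.90), MRPL20 (0.85) and MRPL13 (0.76). MRPL10 thus rose from 15.9 and 14.4 to 30.3 and 29.1 CPM, while its stalk partner MRPL12 fell from 46.2 and 46.7 to 31.6 and 33.7 CPM, a log2 difference of -0.51 (edgeR adjusted p = 1.33e-07).

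The genes with particular roles were spread over both sides. MRPL44, whose fold is that of an RNA-cutting enzyme, was higher in PC3 by 0.66 on the log2 scale, and MRPL45, which ties the ribosome to the inner membrane, was lower at -0.64. MRPL18 stood at -0.33, MRPS22 at -0.54, and MRPS30 at -0.29. Of the paralogs that descend from bacterial S18, MRPS18B fell most at -0.85 and MRPS18A stood at -0.42, while MRPS18C, the one that takes the place of bacterial S18, rose by 0.15, and all passed the test, the last not in DESeq2 nor without the second DU145 or the first PC3 control. MRPS36 did not (log2 difference -0.14, SE 0.16, edgeR adjusted p = 0.434), nor did MRPL51 (-0.02, adjusted p = 0.711), one of the most abundant members.

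**Figure D2:**
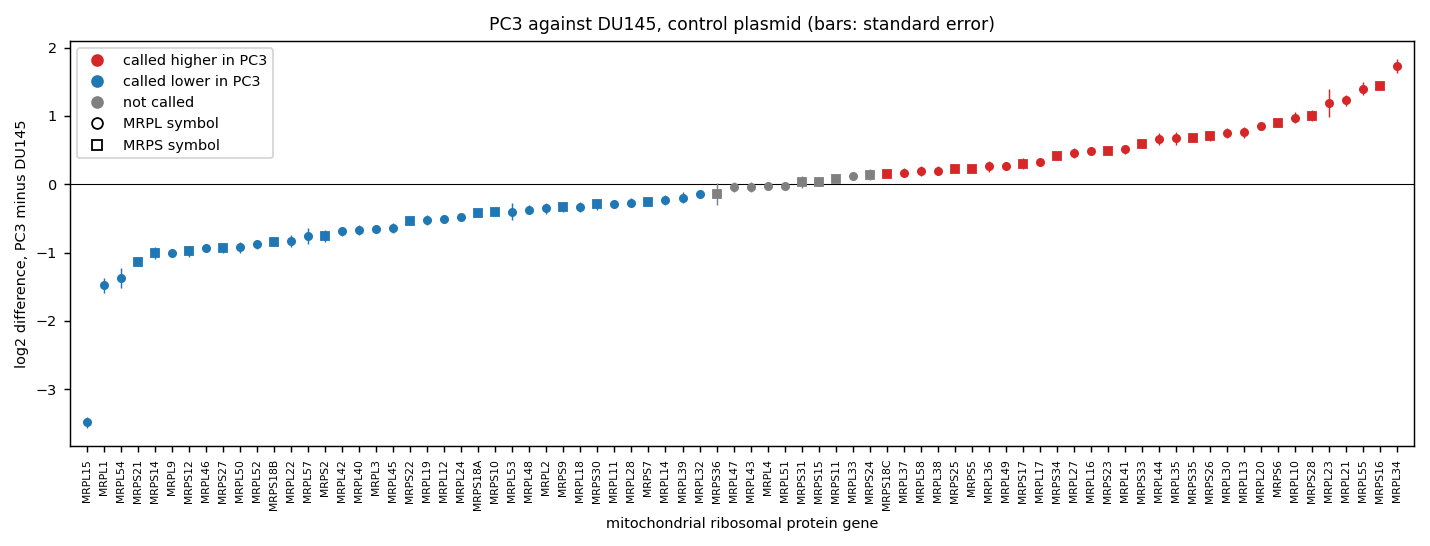
Log2 difference of each of the 78 genes between PC3 and DU145 on the control plasmid, in order of size, with its standard error; red and blue mark genes called higher and lower in PC3 and grey those not called, circles MRPL and squares MRPS symbols. Calls run through both subunits in both directions, from -3.48 for MRPL15 to 1.73 for MRPL34.

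Both subunits, and members with and without a bacterial counterpart, held calls in each direction. Of the 49 MRPL genes 19 were called higher and 25 lower, with a median log2 difference of -0.14. Of the 29 MRPS genes 12 were called each way, with a median of 0.04. The 44 members whose number lies in the bacterial series (up to 36 for MRPL and up to 21 for MRPS) had 17 higher and 23 lower calls and a median of -0.18, and the 34 with higher numbers had 14 and 14 and a median of -0.03. Of the 68 calls 53 were kept in every alternative, and MRPL39 changed direction, from -0.20 to 0.10, when the lines were compared over all 8 libraries.

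The difference of a member between the lines ran along with that of the genes around it. For the 75 members with at least 3 other tested genes within 500000 bases (midpoint to midpoint), the log2 difference correlated with the median of those neighbours at r = 0.76 (Spearman's rho 0.71), beside 0.36 (rho 0.47) over 16441 tested genes. These are descriptions across genes that share the same control libraries, and neighbours share sequence and partly share neighbours with each other. Members and all tested genes were not matched for level here either. Without MRPL15 the 74 remaining members gave r = 0.70, and the 37 whose exons overlap no other listed gene gave 0.73. MRPL15 on chromosome 8 had 5 such neighbours with a median of -2.92: on one side LYPLA1 stood at 57.3 and 58.5 CPM in the DU145 controls and 8.21 and 7.08 in the PC3 controls, TCEA1 at 446 and 471 against 102 and 106, and RGS20 at 46.2 and 43.8 against 3.93 and 4.13. SOX17, on the other side, was at 0 counts in all 4 PC3 libraries and at 2.62 to 3.87 CPM in DU145, and ATP6V1H, the farthest of the 5, had a log2 difference of -0.88. RP1, whose midpoint lies past the window, stood at 0.52 (SE 0.23). MRPS16 at 1.44 had a neighbour median of 1.52, MRPL34 at 1.73 one of 1.12, MRPL55 at 1.40 one of 1.02 and MRPS21 at -1.14 one of the same value. MRPL21 at 1.23 had neighbours at a median of -0.43, and MRPL36 at 0.26 had neighbours at a median of -1.05. Copy number was not measured, and its part in these values was not tested.

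**Figure D3:**
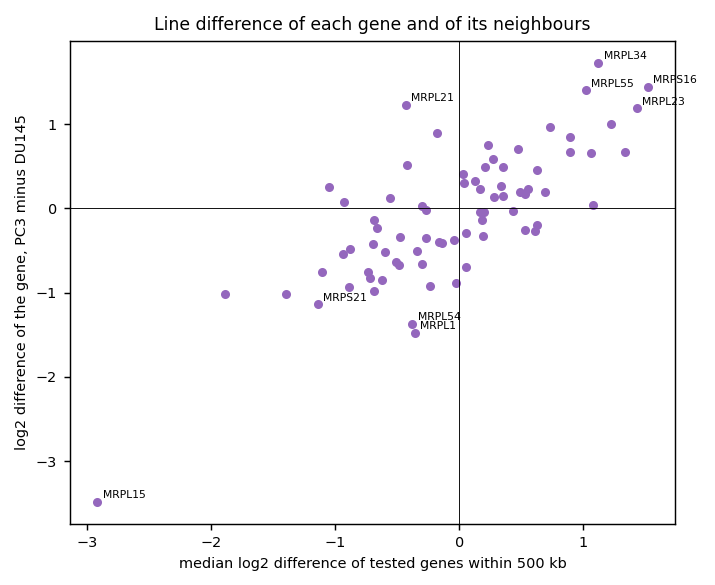
Log2 difference between PC3 and DU145 of 75 members (y) against the median log2 difference of the tested genes within 500000 bases of each (x), control plasmid. The points follow the diagonal at r = 0.76, with MRPL15 far down at -2.92 and -3.48.

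The effect of the circRNA plasmids was then examined within PC3, where the interferon genes rose. As a group the mitochondrial ribosomal protein genes stayed near the centre of all genes. With both circRNA libraries set against both controls, 8 members were called higher (10.3%, beside 10.2% of all tested genes) and 6 lower (7.69%, beside 10.5%). Their median log2 difference was -0.02, beside -0.03 over all genes, and none passed a 2-fold change. In 22 members both circRNA libraries lay above both controls (28.2%, beside 28.6% of all genes) and in 27 below (34.6%, beside 34.3%). The share of members called was therefore near that of genes at large in each of these counts, and what follows concerns single genes.

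MRPL39, a large subunit protein related to threonyl-tRNA synthetase and without a bacterial counterpart (chr21:25585656-25607517, minus strand, hg38), rose most. The PC3 controls gave 23.4 and 23.8 CPM, the circ0003553 library 36.7 CPM and the circ0004592 library 36.1 CPM, so that both circRNA libraries stood well clear of both controls. The log2 difference was 0.62 (SE 0.10, edgeR adjusted p = 0.000221). In DU145 the controls gave 25.4 and 29 CPM and the circRNA libraries 29.7 and 25.5 CPM, which overlap.

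MRPL17, a large subunit protein with a bacterial counterpart near the exit tunnel (chr11:6680782-6683401, minus strand), rose from 55.5 and 58.4 CPM to 78.2 and 76.9 CPM. The log2 difference was 0.45 (SE 0.08, edgeR adjusted p = 0.000611). MRPL40 went from 31.9 and 28.4 CPM to 42.7 CPM with circ0003553 and 35.1 CPM with circ0004592, a difference of 0.37. It lies in the 22q11 region that is deleted in DiGeorge syndrome (chr22:19431902-19436075, plus strand). MRPL44 and MRPS18C both stood at 0.34, MRPS18B at 0.32, MRPL13 at 0.29 and MRPL32 at 0.24. MRPS18C, the most abundant of these in CPM, went from 105 and 97.4 to 134 and 122 CPM.

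Falls were of similar size. MRPL41, a large subunit protein also reported to act in p53-dependent cell death (chr9:137551199-137552555, plus strand), went from 51.2 and 49.5 CPM in the controls to 35.4 and 36.8 CPM. The log2 difference was -0.48 (SE 0.09, edgeR adjusted p = 0.00121). MRPL52 (chr14:22829879-22835037, plus strand) went from 48.2 and 49.4 to 37.8 and 35.0 CPM, a difference of -0.42 (SE 0.10, edgeR adjusted p = 0.00400). MRPL36, the zinc-binding protein that completes the large subunit late in assembly (chr5:1798386-1801366, minus strand), went from 26.9 and 26.5 to 20.2 and 20 CPM, a difference of -0.41. MRPL21 stood at -0.35, MRPL24 at -0.29 and MRPL51 at -0.25. All 14 called members had both circRNA libraries beyond both controls on the side of the call. That follows largely from the call itself, which used the same libraries, and is no separate support.

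Of the 14 calls, those of MRPL39, MRPL17 and MRPL41 were kept in each of the 17 alternatives, and the other 11 were each lost in at least 1. The count depends on which libraries set the spread: 4 were called without PC3 circ0003553 or without the second PC3 control, 6 without PC3 circ0004592 or without the first PC3 control, and 9 without either DU145 control. It was 28 without DU145 circ0003553, 27 without DU145 circ0004592, and 25 from the 4 PC3 libraries alone, with 16 higher (beside 19.1% of the 16189 genes then tested) and 9 lower (beside 15.9%). Those 25 held all 14, and the 11 added included MRPL1 at 0.41, MRPS18A at 0.31 and MRPL34 at -0.34. Shares over all tested genes are not given for the leave-out counts. These counts therefore cannot tell a shift of the members from a shift of the whole fit.

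Each circRNA was also tested alone in PC3, with 1 library against the same pair of controls, so that these counts are not independent of each other. With circ0003553, 13 members were called higher (16.7%, beside 14.3% of all genes) and 9 lower (11.5%, beside 14.5%). With circ0004592, 9 were called higher (11.5%, beside 12.3%) and 14 lower (17.9%, beside 13.5%), or 6 and 15 when scaled by library totals. The largest differences with circ0003553 were 0.63 for MRPL39, 0.50 for MRPL40, 0.46 for MRPL17 and 0.40 for MRPS18C on one side, and -0.66 for MRPS36, -0.51 for MRPL41, -0.43 for MRPL21 and -0.40 for MRPL36 on the other. With circ0004592 they were 0.61 for MRPL39, 0.56 for MRPL1, 0.43 for MRPL17 and 0.32 for MRPL44, and -0.48 for MRPL52, -0.45 for MRPL41, -0.41 for MRPL36 and -0.36 for MRPL30 and MRPL34. MRPS36 had few counts, with 4.44 and 4.35 CPM in the controls, 2.78 CPM with circ0003553 and 4.21 CPM with circ0004592, and its call was lost in DESeq2 and without the first PC3 control. MRPL1 had 5.85 and 5.63 CPM in the controls, 6.44 CPM with circ0003553 and 8.47 CPM with circ0004592. DESeq2 called 11 members with circ0003553 and 8 with circ0004592.

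Set against the control of its own arm, which gives 1 fold per circRNA and no test, the members' log2 folds with the 2 circRNAs in PC3 correlated across the 78 genes at r = 0.69 (rho 0.64), beside 0.76 (rho 0.61) over all tested genes. The 2 folds use different controls. They had the same sign in 56 of 78 members, and ran from -0.66 (MRPS36) to 0.64 (MRPL39) with circ0003553 and from -0.50 (MRPL52) to 0.60 (MRPL39) with circ0004592. In DU145 the corresponding correlation was -0.33 (rho -0.32), beside 0.14 (rho 0.09) over all genes, with the same sign in 28 of 78 members. These values describe 1 library pair each.

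**Figure D4:**
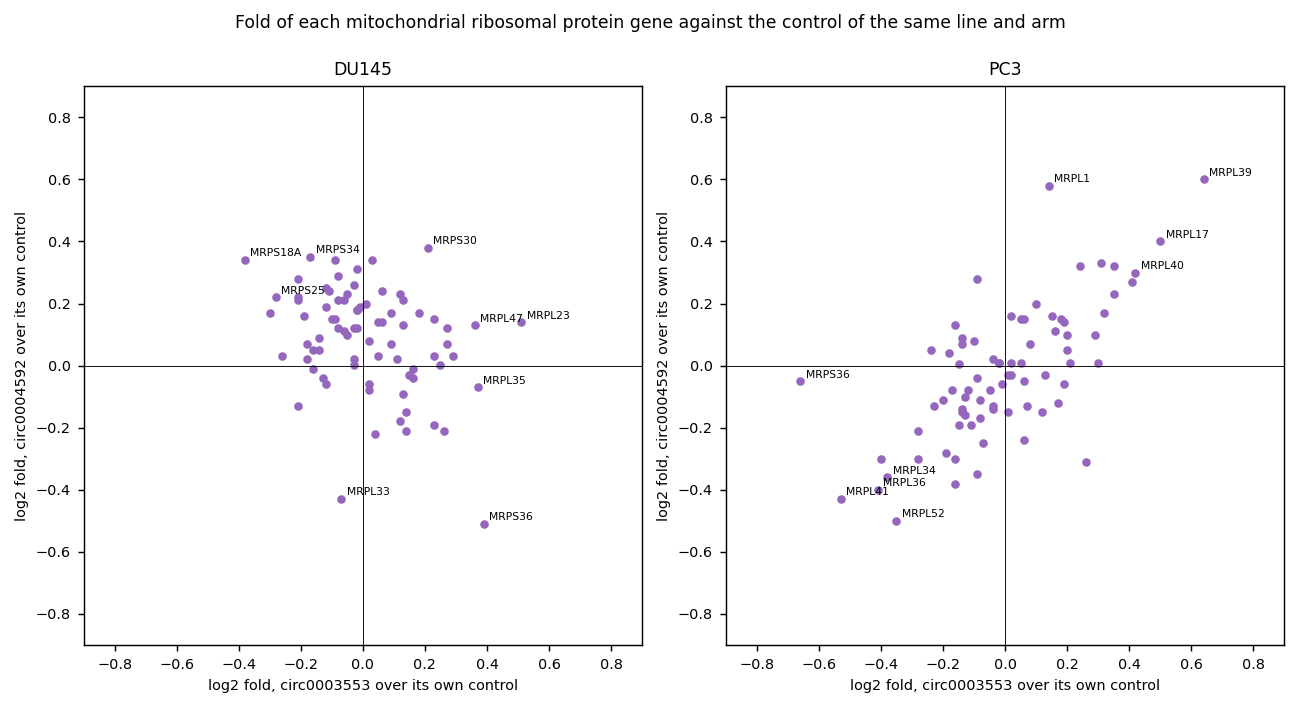
Log2 fold of each of the 78 genes with circ0003553 (x) and with circ0004592 (y), each over the control library that shares its line and arm, for DU145 (left) and PC3 (right). In PC3 the points follow a rising diagonal (r = 0.69) with MRPL39 at the top and MRPL41 and MRPL52 at the bottom, and in DU145 they lean the other way (r = -0.33).

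In DU145, where MX1 stood at 34.8 and 33.5 CPM in the controls and 41.1 and 50.7 CPM with the circRNA plasmids, fewer members were called. With circ0003553, 5 were higher (6.41%, beside 4.62% of all genes) and 3 lower (3.85%, beside 6.27%). MRPL34 at 0.41, MRPL47 at 0.40, MRPL19 at 0.31, MRPL3 at 0.26 and MRPS10 at 0.20 were the rises, and MRPS18A at -0.31, MRPS25 at -0.25 and MRPS5 at -0.23 the falls. With circ0004592, 10 were higher (12.8%, beside 5.93%) and 1 lower (1.28%, beside 4.51%). The rises were led by MRPS12 at 0.37, MRPS30 at 0.34, MRPS34 at 0.33 and MRPS18B at 0.32, and the fall was MRPL33 at -0.36. The split depended on the scaling: with library totals 4 were higher and 2 lower for circ0004592, and with DESeq2 size factors 4 were higher and 5 lower for circ0003553. limma on log2 RPKM called none in either comparison, DESeq2 called 4 and 3, and each of the 19 calls was lost in at least 1 alternative. Leaving out a control library moved the counts from 8 to 3 (DU145 first control), 4 (DU145 second control) or 13 (either PC3 control) for circ0003553, and from 11 to 4 (DU145 first control) or 2 (DU145 second control) for circ0004592.

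MRPS18A, a protein of the large subunit despite its name, shows how the DU145 libraries diverged. Its controls gave 80.9 and 73.8 CPM, the circ0003553 library 62.2 CPM and the circ0004592 library 93.5 CPM, so that the circRNA libraries lay on opposite sides of both controls. MRPS25 was similar, with 106 and 103 CPM in the controls, 87.8 CPM with circ0003553 and 119 CPM with circ0004592. Across the members the absolute log2 difference between the 2 circRNA libraries had a median of 0.20 in DU145, against 0.08 between its controls, 0.06 between the PC3 controls and 0.08 between the PC3 circRNA libraries. The same medians over all tested genes are not given, so this spread is not shown to be particular to the members.

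With both circRNA libraries of DU145 set against both controls, edgeR called none of the 78 (beside 0.543% of all genes called higher and 0.464% lower), 4 had an unadjusted p under 0.05, and DESeq2 and limma also called none. Without DU145 circ0003553, 7 were called, 6 of them higher, and without DU145 circ0004592, 7 were called, 4 of them higher. In 20 members both circRNA libraries lay above both controls (25.6%, beside 19.6% of all genes) and in 3 below (3.85%, beside 19.1%), and the median log2 difference was 0.05, beside 0.01. The 3 that lay below were MRPL16, MRPL33 and MRPL43.

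The circRNA effect was compared between the lines as PC3 effect minus DU145 effect. It was called higher for 2 members (2.56%, beside 6.51% of all genes) and lower for 3 (3.85%, beside 5.6%), all of them with MRPL symbols. MRPL39 stood at 0.60 (SE 0.14, edgeR adjusted p = 0.00967), with an effect of 0.62 in PC3 and 0.03 in DU145. MRPL21 stood at -0.53, with -0.35 in PC3 and 0.18 in DU145, and MRPL52 at -0.51, with -0.42 and 0.08. MRPL41 stood at -0.46, with -0.48 and -0.02, and MRPL17 at 0.40, with 0.45 and 0.04. For MRPL39, MRPL41 and MRPL17 the DU145 value is thus close to 0, as an average over the circRNA libraries. Over the control of the same arm, MRPL39 had log2 folds of 0.23 with circ0003553 and -0.19 with circ0004592 in DU145. For MRPL41 these were -0.19 and 0.16, and for MRPL17 -0.03 and 0.12. The count of 5 was 14 without DU145 circ0003553, 18 without DU145 circ0004592, 0 without the second DU145 control or without PC3 circ0003553, 1 without either PC3 control, and 2 without the first DU145 control or without PC3 circ0004592.

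Other gene groups tied to mitochondrial or cytosolic translation are given beside these for PC3, where both circRNA plasmids had 10.2% of all tested genes called higher and 10.5% lower. With both circRNA plasmids, the 13 messages of the mitochondrial genome, which this ribosome translates, were all called lower, with a median log2 difference of -0.59. Of 77 cytosolic ribosomal protein genes 51 were called lower and 0 higher, with a median of -0.34. The 75 nuclear genes of respiratory chain subunits had 1 call higher and 4 lower and a median of -0.09. These lists were chosen with earlier results of these data known, share the same 4 libraries, and were not tested against each other. In DU145 no gene of these 3 lists was called with both circRNAs together (beside 0.543% of all tested genes higher and 0.464% lower). The mitochondrial messages had a median of 0.26 there. With circ0003553 alone in DU145 the 13 messages had a median of 0.44 (range 0.21 to 0.54), and with circ0004592 alone 0.16 (range -0.07 to 0.33). The cytosolic ribosomal protein genes had a median of 0.04 with circ0003553 in DU145 and 0.08 with circ0004592. For the respiratory chain genes the medians were -0.02 and 0.01, and over all tested genes 0.0000 in each. The share of all counts taken by the 13 mitochondrial messages was 6.59% and 6.41% in the PC3 controls. It was 3.80% with circ0003553 and 4.76% with circ0004592. In DU145 it was 4.15% and 4.48% in the controls, 5.73% with circ0003553 and 4.62% with circ0004592. Fewer transcripts per cell and a smaller share of cells with them cannot be told apart in bulk RNA.

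**Figure D5:**
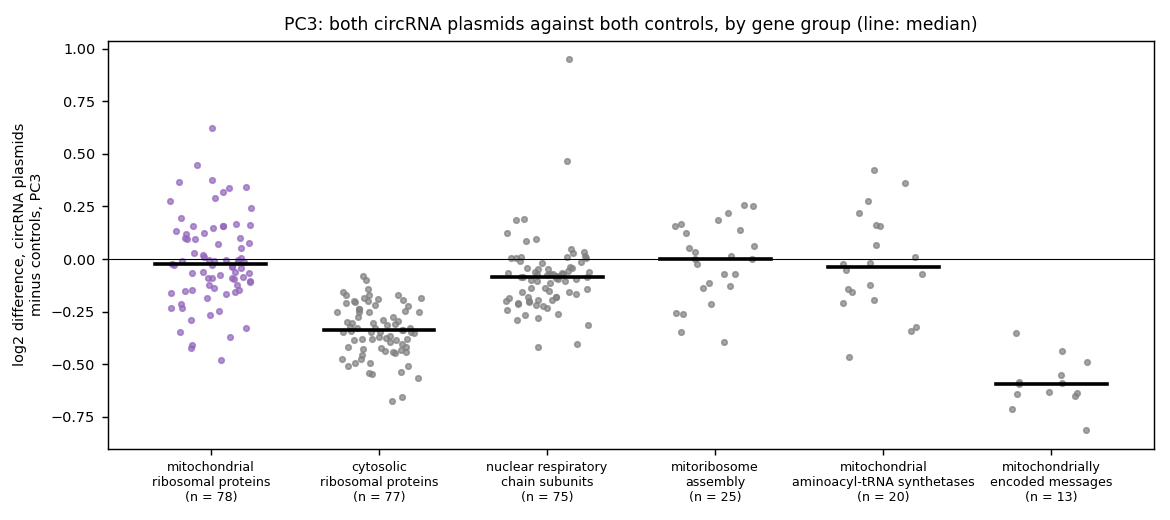
Log2 difference in PC3 between both circRNA libraries and both controls, 1 point per gene, for the 78 mitochondrial ribosomal protein genes (purple) and 5 other groups (grey), with the median as a black line. The purple points straddle 0 (median -0.02), the cytosolic ribosomal proteins lie below 0 (median -0.34) and the mitochondrial messages lowest (median -0.59).

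The other machinery of mitochondrial translation is given here for PC3 with both circRNAs. In that comparison 10.2% of all tested genes were called higher and 10.5% lower. Of 6 genes with other names, listed for proteins in or bound to the mitochondrial ribosome, 1 was called, PTCD3, at 0.28 (SE 0.09, edgeR adjusted p = 0.0434). Of 25 genes listed under assembly and 16 under translation factors none was called in either line with both circRNAs. Both lists also hold genes outside a strict reading, LYRM4 in the first and LRPPRC and SLIRP in the second. Among 20 mitochondrial aminoacyl-tRNA synthetases and related enzymes, AARS2 (0.42) and TARS2 (0.36) rose and RARS2 (-0.46), NARS2 (-0.34) and IARS2 (-0.32) fell. Of 19 genes of mitochondrial DNA expression 2 were called, both higher. PNPT1, an RNA-degrading enzyme of mitochondria that is itself an interferon-induced gene, went from 26.4 and 29.8 to 183 and 180 CPM (log2 difference 2.69), and the DNA helicase Twinkle, listed as C10orf2, rose by 0.38. C10orf2 shares exon positions with MRPL43 on the opposite strand, and MRPL43 had 23.6 and 21.8 CPM in the PC3 controls and 21.3 and 21.9 CPM with the circRNA plasmids. Among 12 regulators of nuclear mitochondrial genes, NRF1, a transcription factor for many of them, went from 21.5 and 22.3 to 13.7 and 14.3 CPM (log2 difference -0.65, SE 0.10, edgeR adjusted p = 0.000183), while MAX rose by 0.64 and ATF5 by 0.42.

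Between the lines all of these groups but the mitochondrial messages had calls in both directions. Of all tested genes 41.6% were called higher in PC3 and 41.1% lower. Of the 6 genes with other names 5 were called higher in PC3, led by CHCHD1 at 2.23 and AURKAIP1 at 1.37, and 1 lower. The 5 include OXA1L (0.89), whose protein binds the ribosome and is not one of its own. Among the 25 genes of the assembly list 11 were called each way, with NOA1 (1.55) and MPV17L2 (1.54) highest and ERAL1 (-2.01) and MRM1 (-1.86) lowest. The 16 genes of the translation factor list had 6 higher and 8 lower calls, the largest of them GUF1 at -1.28. The 20 synthetases and related enzymes had 7 and 9, with SARS2 at -2.38 and PARS2 at 1.60. The 77 cytosolic ribosomal protein genes had 41 higher and 28 lower calls, and the 75 respiratory chain genes 44 and 19. All 13 mitochondrial messages were called higher in PC3, with a median of 0.47. SARS2 shares exon positions on the opposite strand with MRPS12, and both were lower in PC3.

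The promoters of 69 of the 78 members were found in the RefSeq table (GRCh38.p14, 250 bases before to 50 bases after the start). The search took 6 short motifs that regulators of nuclear mitochondrial genes are known to read, or that mark promoters in general, on both strands. The ETS core CCGGAAG, read by GABP among others, stood in 29 of the 69 (42%), beside 18.3% of 10905 tested genes and 10.7% of all 27305 promoters. The YY1 motif AAGATGGCG stood in 13 (18.8%), beside 3.74% and 1.85%. The NRF1 motif GCGCATGCG stood in 3 (4.35%, beside 3.59% and 2.1%), the E-box CACGTG in 6 (8.7%, beside 10% and 7.43%), CCAAT in 20 (29%, beside 36.5% and 35.7%) and TATAAA in 2 (2.9%, beside 5.75% and 12%). Median log2 differences in PC3 with both circRNAs were -0.04 with and -0.01 without the ETS motif, 0.05 with and -0.04 without the YY1 motif, and 0.34 with and -0.03 without the NRF1 motif, which only 3 members hold. For the E-box they were 0.01 and -0.04, for CCAAT -0.04 and -0.02 and for TATAAA -0.06 and -0.02, all as descriptions without a test.

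Each stretch printed here gives, 5′ to 3′ on the gene's strand, the longest run of the 150 bases before the RefSeq start that lies in no exon of the deposited tables. They are shown for members called in PC3 whose run held at least 60 bases, the 3 largest such rises and the 1 such fall. MRPL41, MRPL52 and MRPL40, with larger changes than some of those shown, had shorter runs. Capitals mark a motif from the search. They are MRPL39 (chr21:25607518-25607631, minus strand), MRPL17 (chr11:6683402-6683490, minus strand), MRPL44 (chr2:223957313-223957403, plus strand) and MRPL36 (chr5:1799896-1799987, minus strand).
MRPL39: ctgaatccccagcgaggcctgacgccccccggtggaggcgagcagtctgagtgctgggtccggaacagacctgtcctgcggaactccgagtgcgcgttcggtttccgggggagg
MRPL17: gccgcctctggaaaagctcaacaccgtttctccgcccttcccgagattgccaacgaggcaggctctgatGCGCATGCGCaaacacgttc
MRPL44: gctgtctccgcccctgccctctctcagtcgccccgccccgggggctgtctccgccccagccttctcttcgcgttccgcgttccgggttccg
MRPL36: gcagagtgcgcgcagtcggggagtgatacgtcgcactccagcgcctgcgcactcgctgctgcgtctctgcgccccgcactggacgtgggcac
MRPL17 alone of the 4 shows capitals, where the NRF1 motif is read on both strands with 1 base of shift. A match is a run of letters and not a measured binding site, and the absence of one says only that these letters are not in the run.

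Positions also place several members beside another gene. In the GENCODE 29 annotation 17 of the 78 (21.8%) start within 1000 bases of an oppositely directed protein-coding gene, beside 9.45% of 13137 tested protein-coding genes. Partners could differ: MRPL21 and IGHMBP2, with 7 bases between their starts, differed between the lines by 1.23 and -0.37, and MRPL46 and MRPS11, both members, by -0.93 and 0.08. In PC3 with both circRNAs, MRPL36 stood at -0.41 and its partner NDUFS6 at -0.11. Exons of 40 members overlap those of another listed gene, 29 of them on the opposite strand, and whether counting used strand is not given in the sources used here. Of the genes named above, MRPS16 overlaps DNAJC9 on its own strand, which had 591% of its mean CPM, and MRPS28 overlaps a transcript with 1153%. On the opposite strand, ACTL6A had 794% of the mean CPM of MRPL47, and CACYBP 741% of that of MRPS14. C10orf2 had 573% of that of MRPL43, and COPB2 302% of that of MRPS22. Other genes named above overlap as well. For MRPL34 the figure was 52.1%, from ABHD8 on the opposite strand, and for MRPL51 it was 164%, from NCAPD2. MRPL1, MRPL15, MRPL17, MRPL39, MRPL40, MRPL41 and MRPL52 overlap no other listed gene.

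Members were shorter than genes at large, with a median of 2502 exon bases against 4147. Across the 78 genes Spearman's rho between log2 difference and exon length was 0.07 between the lines, 0.13 in PC3 with both circRNAs and 0.0009 in DU145, beside 0.0004, 0.07 and -0.03 over all tested genes. With mean RPKM the values were 0.03, -0.07 and -0.21, as a description across genes that share libraries.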

How the data were processed

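Total RNA was depleted of ribosomal RNA and made into stranded libraries that carry molecular identifiers, per the labels' protocols. Reads were trimmed with Trimmomatic 0.36, counted per gene with featureCounts of Subread 1.5.1 on hg38 and handled with edgeR 3.12.1, per the submitters' processing notes. The authors deposited raw read counts and RPKM values per gene, 1 pair of tables per arm. The deposited RPKM equal the counts divided by exon length and library total. Aligner, annotation release, strand setting and use of the identifiers are not given in the sources used here.

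Counts of both tables were joined over 36779 genes. Genes with 1 CPM in at least 2 libraries (17877) were tested with TMM factors in edgeR 4.0.16 (R 4.3.3), and p-values were adjusted by Benjamini-Hochberg over all of them, with a threshold of 0.05. CPM use the TMM-scaled total. A fit of 6 groups (line and plasmid, with the 2 controls of a line as replicates, 2 residual degrees of freedom) gave the line comparison and the single-circRNA tests, in which a lone library is assumed to vary like the controls. A fit of 4 groups (line by control or circRNA plasmid, 4 residual degrees of freedom) gave the comparisons of both circRNAs and the difference between lines. It takes the circ0003553 and the circ0004592 library of a line as replicates. Its spread therefore includes any difference between the 2 circRNAs, and it is pooled over both lines. An SE was worked out as |log2 difference| over the root of F. Folds over the control of the same arm were taken with a prior count of 2. The code was tested on simulated data. Even numbers made up 64.9% to 66.1% of counts from 1 to 20. Whether a read pair counts as 2 was not tested.

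Named were the called members with the largest absolute log2 differences of each comparison (up to 10 per direction), the 5 highest and 5 lowest mean RPKM, members with stated roles, and up to 4 called genes per list. Genes named for their neighbourhood, overlaps, motifs or non-overlapping libraries were chosen after their values were seen. The members and lists were chosen with earlier results of these data known. Alternatives were DESeq2 1.42.0, its size factors, library totals, no filter, a filter of 5 CPM, limma 3.58.1 on log2 of the deposited RPKM plus 0.1 or 1, each library left out, and other sets of libraries.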

Additional observations from a re-analysis of the deposited data

Results flagged for a closer look

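In 5 members the effect of the circRNA plasmids differed between the lines by the test of that difference itself (PC3 effect minus DU145 effect, edgeR adjusted p under 0.05 over all tested genes). The log2 values were 0.60 for MRPL39, 0.40 for MRPL17, -0.46 for MRPL41, -0.51 for MRPL52 and -0.53 for MRPL21. Each was kept in 8 to 12 of 15 alternatives, and each was lost when at least 1 library was left out. No group held 4 or more libraries, so single libraries were not screened for outlying values.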

How the results depend on the processing

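Each count of called members was recomputed with 1 choice changed at a time. Except for the 4 PC3 libraries alone, the share over all tested genes is not given for these alternatives. The counts therefore cannot tell a shift of the members from a shift of the whole fit. The line comparison, with 68 calls, kept a count within 1.5 times in all 17 alternatives (58 to 68). With each circRNA alone, DESeq2 called 4 (circ0003553) and 3 (circ0004592) members in DU145 and 11 and 8 in PC3, and limma called 0 and 0 in DU145 and 14 and 13 in PC3 with either pseudocount. Scaling by library totals called 6 with circ0004592 in DU145. For both circRNAs in PC3, the 4 PC3 libraries alone called 25 and the same with the arm as a block called 29. The arm block left DU145 at 0 calls. With each library left out in turn, the counts ran from 63 to 68 for the lines, from 3 to 13 and from 2 to 14 for circ0003553 and circ0004592 in DU145, from 20 to 26 and from 20 to 24 for them in PC3, from 0 to 7 for both circRNAs in DU145, from 4 to 28 for both in PC3, and from 0 to 18 for the difference between lines. The cause of these shifts was not tested. Among named called members, only MRPL39 reversed, from -0.20 to 0.10 in the line comparison over all 8 libraries. No paired analysis was possible beyond the arm block because the labels give no replicate numbers. Depth limits MRPL23, MRPS36 and MRPL54 most, and 1 library per circRNA and line limits all circRNA results.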
